A study of Homo sapiens with 4 samples.

Results

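ELF5 binding was described at 6 genes of the adherens junction, CDH1, CDH3, CTNNB1, CTNND1, CTNNA1 and JUP, from the authors' deposited list of ELF5 ChIP-seq peaks in T47D cells. A peak was taken when its summit lay in 1 of 5 windows set around these genes on hg19, with CDH3 and CDH1 sharing a window because they are neighbours. The windows covered 910 kb and held 97 of the 115384 peaks in the list. The study sequenced 3 ELF5 immunoprecipitations and 1 input from T47D, an established line of human luminal A breast epithelium, which per the labels was grown in RPMI with serum and insulin and left untreated. ELF5 belongs to the ETS family and is known for its role in the milk-secreting lineage of the breast, and the title of the series concerns its part in epithelial integrity apart from the related factor EHF. The 4 samples share 1 cell line, so binding here is binding in T47D only, and it is not stated whether the replicates were grown separately. A catalogue antibody is listed for each ELF5 sample, although the shared protocol lists only antibodies for other proteins and lines. The list holds no value per replicate and none for the input, so no peak has a spread between replicates and no comparison between groups of samples could be tested.

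Adherens junctions join neighbouring epithelial cells. Classical cadherins span the membrane and bind the same cadherin on the next cell, β-catenin or plakoglobin holds the cadherin tail, p120-catenin binds closer to the membrane and keeps the cadherin at the surface, and α-catenin ties the complex to actin. E-cadherin is the main cadherin of luminal breast cells and its loss is a known feature of lobular breast cancer, while P-cadherin is typical of the basal layer. β-catenin is also the transcriptional effector of Wnt signalling, and plakoglobin is shared with the desmosome.

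ETS factors recognise DNA around a GGAA core, read as TTCC on the opposite strand. Reference promoters of 3 of the 6 genes were in the RefSeq table used here, CTNNB1 with 1 start, CTNNA1 with 4 and JUP with 2, each from 250 bases before to 50 bases after a start on GRCh38.p14. The promoter of each gene's first listed start is shown to display the density of these cores in the genes whose windows are described next, with every GGAA or TTCC in capitals and all other bases in lower case. They are chr3:41199255-41199554 on the plus strand for CTNNB1, chr5:138753175-138753474 on the plus strand for CTNNA1 and chr17:41786662-41786961 on the minus strand for JUP, each written along the strand of its gene.
CTNNB1 promoter: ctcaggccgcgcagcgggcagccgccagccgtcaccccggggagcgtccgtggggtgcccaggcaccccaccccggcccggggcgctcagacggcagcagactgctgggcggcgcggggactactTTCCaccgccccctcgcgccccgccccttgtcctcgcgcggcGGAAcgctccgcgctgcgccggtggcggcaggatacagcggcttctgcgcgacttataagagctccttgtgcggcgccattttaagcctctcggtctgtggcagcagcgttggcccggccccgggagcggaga
CTNNA1 promoter, first start: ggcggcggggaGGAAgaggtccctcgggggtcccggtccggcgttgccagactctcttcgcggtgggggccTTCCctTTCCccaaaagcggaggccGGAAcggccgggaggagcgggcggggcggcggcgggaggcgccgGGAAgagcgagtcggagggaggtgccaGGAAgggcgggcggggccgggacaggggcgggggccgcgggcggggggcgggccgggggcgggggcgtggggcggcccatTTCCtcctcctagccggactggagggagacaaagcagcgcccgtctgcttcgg
JUP promoter, first start: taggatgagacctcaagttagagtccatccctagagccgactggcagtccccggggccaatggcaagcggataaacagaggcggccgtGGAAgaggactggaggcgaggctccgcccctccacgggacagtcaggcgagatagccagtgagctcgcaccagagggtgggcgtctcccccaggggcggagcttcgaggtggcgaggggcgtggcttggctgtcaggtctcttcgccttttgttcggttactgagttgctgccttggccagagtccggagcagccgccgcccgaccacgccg

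The CTNNA1 promoter at its first start held 7 cores in 300 bases, the CTNNB1 promoter 2 and the JUP promoter at its first start 1. At least 7 cores were present in 8.29% of all 35116 promoters in the table, and at least 2 in 83.76%. The core is short and common, so 95.5% of all promoters held at least 1. The longer string AGGAAG or CTTCCT, searched on both strands and always containing a core, occurred 2 times in the CTNNA1 promoter at its first start, with first letters 240 and 84 bases before the start. It was in 33.6% of all promoters and in none of the other 6 sequences of these genes. The second CTNNA1 start also had 7 cores, its other starts 5 and 3, and the second JUP start 4. A match is a string in the reference and not a measured site. The peaks are on hg19 and these sequences on GRCh38, so no distance between a peak and a printed promoter is given.

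All 5 windows held at least 1 strong ELF5 peak, a strong peak being one among the highest 10% of the list by fold over its local background. The peaks in total numbered 24 in the CDH3 and CDH1 window, 6 at CTNNB1, 33 at JUP, 13 at CTNND1 and 21 at CTNNA1. Strong peaks numbered 3 in the CDH3 and CDH1 window, 1 at CTNNB1, 5 at JUP, 1 at CTNND1 and 2 at CTNNA1. These made 12 of 97, or 12.4% (exact binomial 95% interval 6.56% to 20.6%), against 10.0% of the whole list, so the share of strong peaks lay near that of the list. The interval takes the peaks as independent draws, although many lie close together in the same window. When chromosomes 1 to 22 and X were cut into tiles of the same lengths, at least 1 strong peak was present in 41.5% of tiles of 260 kb, 41.8% of tiles of 265 kb, 30.0% of tiles of 145 kb and 22.9% of tiles of 95 kb. The tiles include regions without genes and assembly gaps, so a strong peak near a gene may be more frequent than these shares give, and that was not tested.

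**Figure D1:**
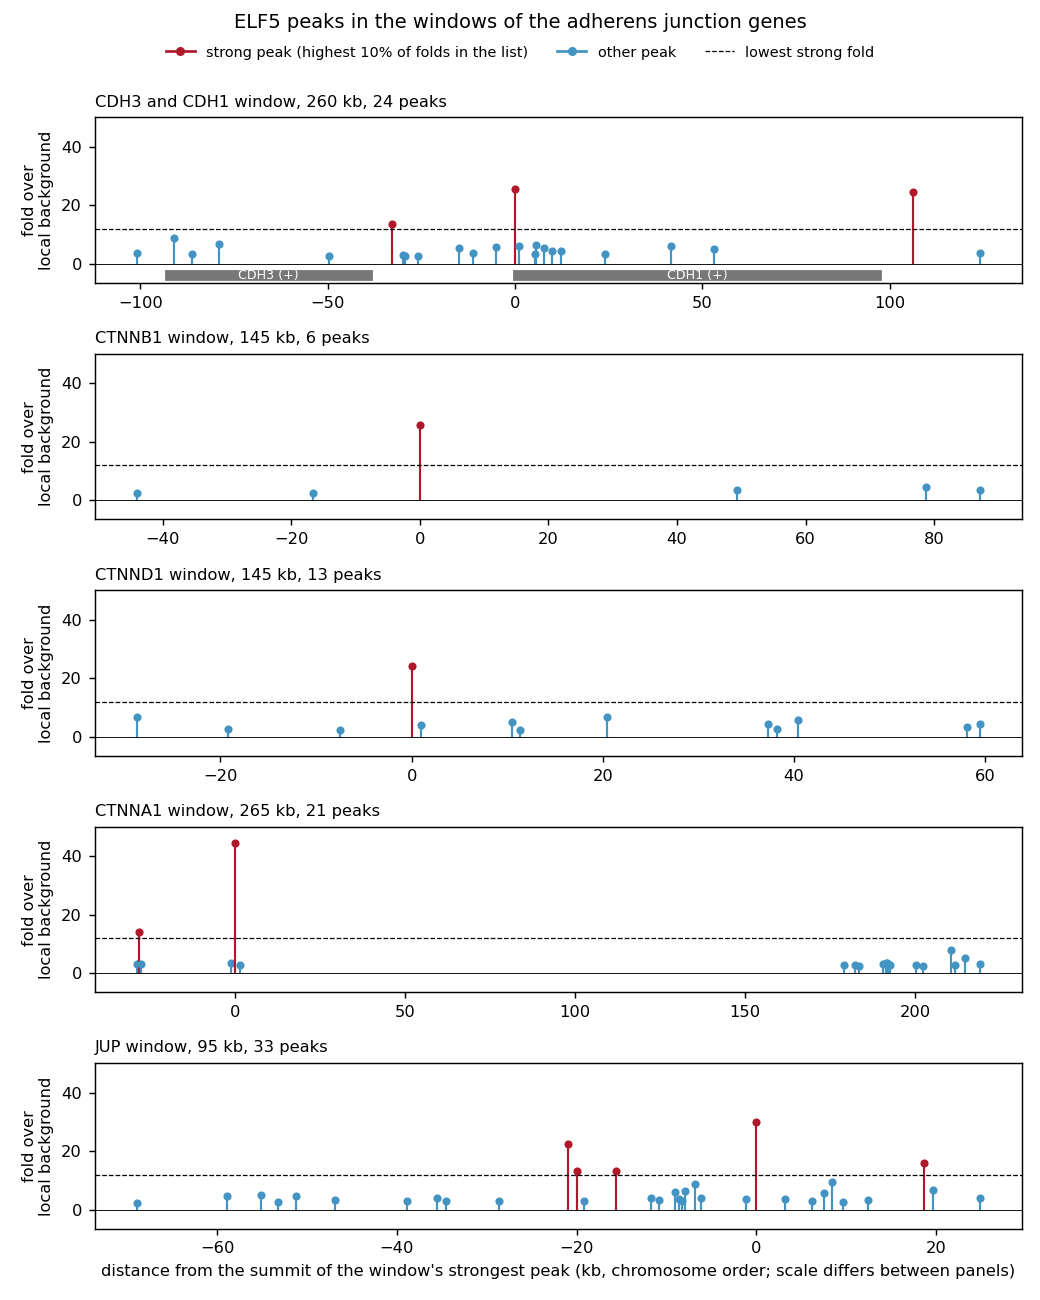
ELF5 peaks in each window, plotted as fold over local background (vertical axis, linear) against the distance in kb from the window's strongest summit (horizontal axis), with strong peaks in red, other peaks in blue and CDH3 and CDH1 as grey bars. JUP shows 33 peaks in 95 kb, CTNNB1 shows 1 tall peak among 6, and CTNNA1 shows a stretch of 177 kb without a summit.

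Folds in the windows were like those of the list as a whole. The median fold over the 97 peaks was 3.66, against 3.66 in the whole list, and 48 of the 97 lay above the list's median. By window the median was 4.91 for CDH3 and CDH1, 4.38 for CTNND1, 3.88 for JUP, 3.43 for CTNNB1 and 3.11 for CTNNA1. The 95% interval of the median, from the ranks of the peaks, contained the list's median in the first 4 of these, and for CTNNA1 it ran from 2.85 to 3.58, below it. This interval takes peaks as independent, which neighbouring peaks need not be, so it is not a test against the list. The authors' q was under 0.05 for 86 of the 97, or 88.7%, against 87.5% of the list. The 11 others were spread over all 5 windows, 4 of them at CTNNA1, with a highest q of 0.365.

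**Figure D2:**
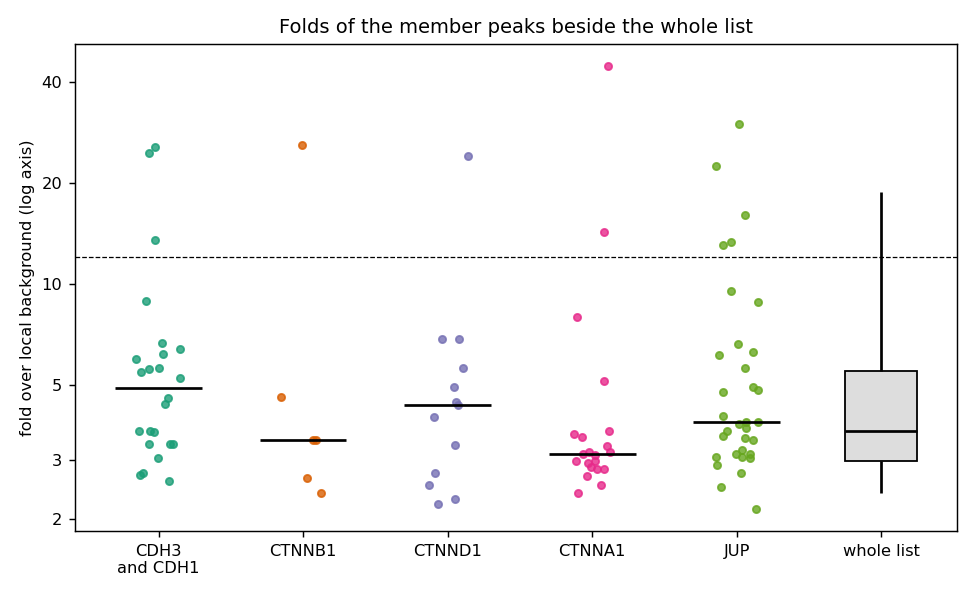
Fold over local background (log axis) of each of the 97 peaks by window, with a bar at the window's median, beside the whole list as a box from the first to the third quartile with lines to percentiles 5 and 95. The dashed line marks the lowest strong fold, 11.99, and 12 points lie above it.

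The density of peaks differed between the windows. JUP held 34.7 peaks per 100 kb, CDH3 and CDH1 9.23, CTNND1 8.97, CTNNA1 7.92 and CTNNB1 4.14, against 3.80 over chromosomes 1 to 22 and X. The surrounding chromosome bands also differed, with 17.5 peaks per 100 kb in 17q21.2 around JUP, 10.5 in 16q22.1 around the cadherins, 4.83 in 11q12.1 around CTNND1, 7.30 in 5q31.2 around CTNNA1 and 4.63 in 3p22.1 around CTNNB1. The cadherin, CTNNA1 and CTNNB1 windows were thus close to their bands, while the JUP and CTNND1 windows were denser than theirs. Of all tiles of 95 kb, 1.06% held at least 33 peaks and 0.592% at least 5 strong ones. Of these 31950 tiles, which include regions without genes and assembly gaps, 19904 held any peak. Shares among tiles with genes were not determined. At least 3 strong peaks, as in the cadherin window, were found in 13.0% of tiles of 260 kb, and at least 2, as at CTNNA1, in 23.4% of tiles of 265 kb. For the other windows, tiles of the same length with at least as many peaks made up 11.9% for the cadherins, 12.7% for CTNND1, 14.4% for CTNNA1 and 26.5% for CTNNB1.

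**Figure D3:**
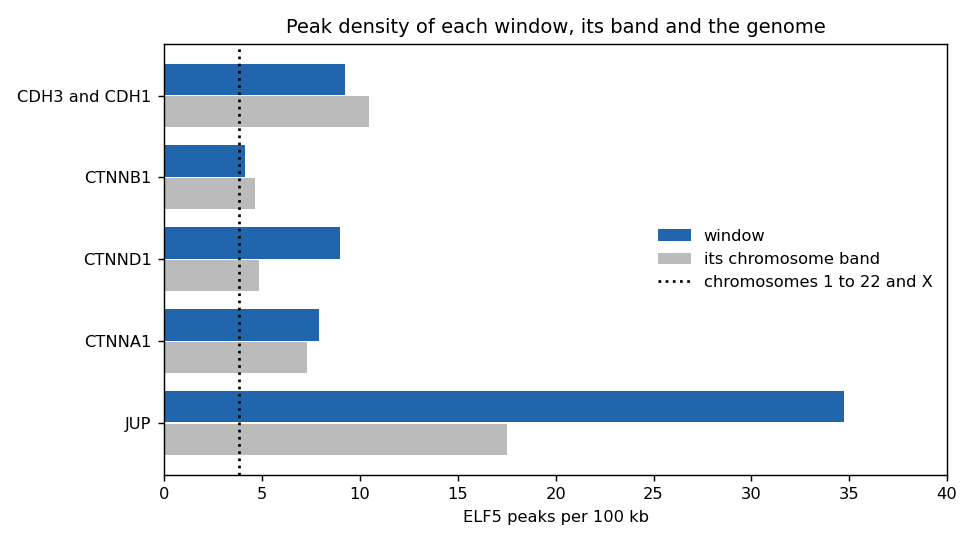
ELF5 peaks per 100 kb in each window (blue), in the chromosome band that holds it (grey) and over chromosomes 1 to 22 and X (dotted line, 3.80). The JUP window, at 34.7, is above its band at 17.5, and the CTNNB1 window, at 4.14, is close to the dotted line.

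At CDH1, which encodes E-cadherin, the strongest peak of the cadherin window lay at the start of the gene. It covered chromosome 16 from 68770916 to 68771713 with its summit at 68771263, and the gene starts at 68771 kb, a position known here only to about 1 kb. Its fold was 25.5 (21.0 to 30.7), where the bracketed range is the exact Poisson 95% interval of the fragment pileup with the background held fixed, which covers counting error only and makes no allowance for the summit being a maximum. The pileup, the number of fragments stacked at the peak as recovered from the authors' fold and p, was 111 over a background of 3. The fold was higher than that of 97.5% of the list.

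The start of CDH1 was followed by a run of weaker peaks inside the gene. Joined at 5 kb between summits, the run had 7 peaks over 12.8 kb, from 68770916 to 68783711. The 6 besides the strongest had folds from 3.34 to 6.39. All 7 had a q under 0.05, as did 87.5% of the list. The rest of CDH1 held 3 more peaks, at 68795133, 68813000 and 68824357, with folds of 3.35, 5.96 and 5.25, and then no summit for 53.1 kb. Distances this long made up 10.8% of all distances between neighbouring summits in the list.

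At CDH3, which encodes P-cadherin, the nearest peak was wide but below the threshold for a strong peak. It covered 68678672 to 68680354, or 1683 bp, a width reached by 0.997% of the list, with a summit 2.20 kb past the gene start at 68678 kb. Its fold was 8.89 (6.37 to 12.1), from a pileup of 38 over a background of 3. The peak at the start of CDH1 had the same background and a pileup of 111, and the intervals of the 2 folds did not overlap. The summit of the CDH3 peak lay 1532 bp from its first base, near the end that points into the gene. CDH3 held 4 peaks in 55 kb and CDH1 10 in 98 kb, which is 7.27 and 10.2 per 100 kb.

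The other strong peaks of the cadherin window lay outside both genes. One lay between CDH3 and CDH1 at 68738189 to 68738625, 5.48 kb past the end of CDH3 and 32.5 kb before CDH1, with a fold of 13.5 (10.6 to 16.9). The 38 kb between the genes held 7 peaks, or 18.4 per 100 kb, and 6 of them were below the threshold for a strong peak, with folds up to 5.63. The other strong peak lay 8.46 kb past the end of CDH1 at 68877257 to 68877939, with a fold of 24.5 (19.9 to 30.0), an interval that overlapped that of the peak at the CDH1 start. It stood alone, and the nearest other summit was 17950 bp away. The next protein-coding gene in the RefSeq order for GRCh38 is TANGO6, and to which gene this peak belongs was not determined.

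At CTNNB1, which encodes β-catenin, 1 strong peak stood among 5 that were below the threshold. It spanned 1403 bp of chromosome 3, from 41240264 to 41241666, and had a fold of 25.8 (21.8 to 30.3) and a pileup of 146 over a background of 4.185. The nearest other summit was 16681 bp away, and none of the 6 peaks joined another at 5 kb. The 5 others had folds from 2.38 to 4.62, the highest at 41319512 to 41319891. Of these 5, 3 had a q under 0.05, against 87.5% of the list. The next highest fold, 3.43 (1.99 to 5.59), was shared by the peaks at 41290194 to 41290360 and at 41328035 to 41328172. Gene starts on hg19 were used here for the cadherins only, so whether this peak lies at the start of CTNNB1 was not determined. ULK4 is the next protein-coding gene in the RefSeq order.

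The window of JUP, which encodes plakoglobin, had the most peaks and the densest binding of the 5 windows. It also had the most strong peaks, although with strong meaning the highest 5% of folds it tied with the cadherin window at 2. The strongest peak at JUP spanned 1633 bp of chromosome 17, from 39948977 to 39950609. It had a fold of 29.9 (25.4 to 34.9) and a pileup of 156 over a background of 3.78. A further strong peak, at 39927949 to 39929041, reached a fold of 22.5 (18.9 to 26.5). Its neighbour at 39929096 to 39930210, whose summit was 1061 bp away, had a fold of 13.3 (11.0 to 15.9). Only a short gap separated the edges of these 2 peaks. They were counted as separate peaks and fell in the same run when peaks were joined at 5 kb. The strong peak at 39933307 to 39934447 had a fold of 13.1 (10.8 to 15.7), and that at 39967213 to 39968927 one of 16.1 (12.9 to 19.8).

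Most peaks of the JUP window formed 1 cluster. Joined at 5 kb, 20 of the 33 peaks made a run of 34.2 kb from 39927949 to 39962109 that held 4 of the 5 strong peaks. All 20 had a q under 0.05, as did 87.5% of the list. The 10 peaks before this run had folds from 2.14 to 4.95 and none was strong. All 5 strong peaks were at least 1093 bp wide, against a median of 818 bp for strong peaks of the list. The highest fold among the 28 other peaks was 9.52, at 39957591 to 39958183. In the RefSeq order JUP, on the minus strand, lies between HAP1 and P3H4, with FKBP10 after P3H4, so peaks of this window may belong to neighbours, and how they divide among the genes was not determined.

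At CTNND1, which encodes p120-catenin, the strongest peak stood on a high background. It reached a fold of 24.0 (20.9 to 27.5) between 57508592 and 57509543 on chromosome 11, and had a pileup of 210, the highest of the 97. Its background was 7 fragments, a level reached at 4.49% of the list. By p it therefore ranked 711 in the list, ahead of the strongest peaks of JUP, CTNNB1 and CDH1 at ranks 1421, 2087 and 3635, while by fold it came after all 3. The 12 other peaks had folds from 2.22 to 6.86. Folds of 6.86 (4.89 to 9.39) at 57529168 to 57529564 and of 6.84 (5.02 to 9.13) at 57479959 to 57480210 were the highest of these. The latter peak had its summit at 57480083, at the edge of the window, which starts at 57480 kb. MED19, TMX2, SELENOH and BTBD18 come just before CTNND1 in the RefSeq order. Whether the strongest peak or the peak at the window's edge lies at CTNND1 or at one of these was not determined.

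The strongest ELF5 peak of the 5 windows lay in that of CTNNA1, which encodes α-catenin. It spanned 1529 bp of chromosome 5, from 138088600 to 138090128, and had a fold of 44.4 (38.6 to 50.9) and a pileup of 206 over a background of 3.24. It ranked 230 of 115384 by fold and 167 by p. The lower bound of its interval was above the upper bound of every other peak in the windows. A second strong peak lay 28104 bp before it, at 138060866 to 138061315, with a fold of 14.2 (11.3 to 17.7).

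The strong peaks of the CTNNA1 window were each flanked by weak ones and followed by a long stretch without peaks. Within 3 kb, the peak with a fold of 14.2 had 3 weak neighbours with folds from 3.15 to 3.29, and the peak with a fold of 44.4 had 2, with folds of 2.68 and 3.58. From 138090535 to 138268000 there was no summit, a distance of 177 kb that was matched or exceeded by 2.50% of the distances in the list. Beyond it came 14 weaker peaks, whose folds had a median of 2.98 and reached 8.00 (5.65 to 11.0) at 138299547 to 138299757. Their backgrounds ran from 2.40 to 4 fragments, with a median of 3.0. Those of the 7 peaks before the stretch ran from 2.835 to 4.185, with a median of 3.645. A stretch with no listed peak means that none passed the authors' threshold there, and mappability was not tested. In the RefSeq order, which is by lowest coordinate, LRRTM2 and SIL1 come after CTNNA1. That order does not place them past its end. To which gene the 14 peaks belong was not determined.

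**Figure D4:**
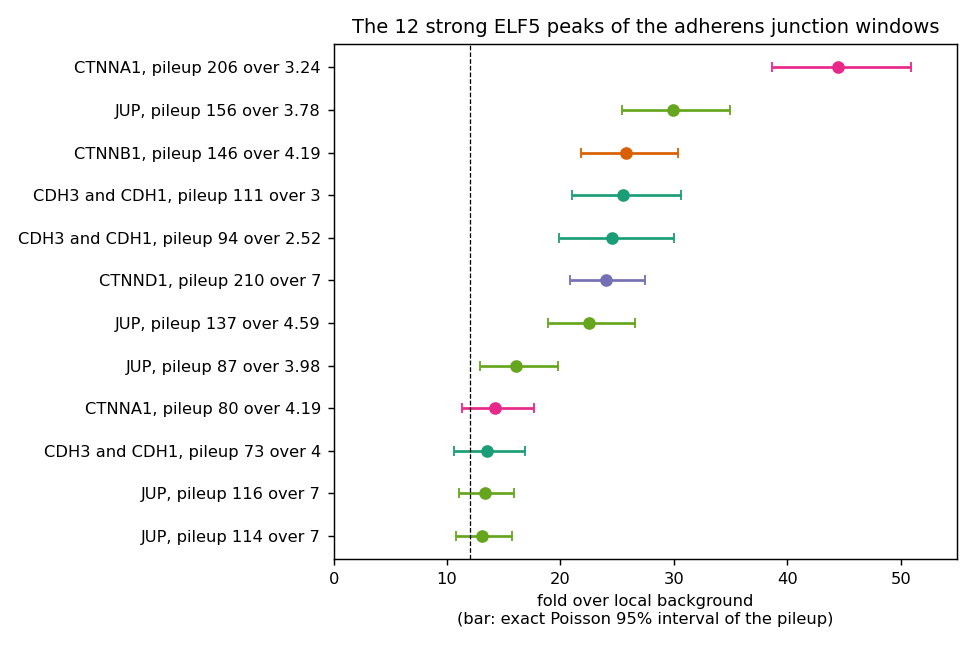
Fold over local background (horizontal axis, linear) of the 12 strong peaks, labelled by window with the recovered pileup and background in fragments, and with exact Poisson 95% intervals of the pileup as bars. The CTNNA1 peak at 44.4 stands above the others, and the dashed line is the lowest strong fold of the list, 11.99.

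Across the 5 windows the strongest peaks ranked CTNNA1, JUP, CTNNB1, the shared window of CDH3 and CDH1, and CTNND1 by fold. The ranking is of windows and not of genes. Only the interval of the CTNNA1 peak lay apart from those of the others. The intervals of the JUP, CTNNB1, CDH1 and CTNND1 peaks overlapped each other. Overlap of intervals is not a test of a difference, and the order of these peaks was not tested. The 12 strong peaks had a median fold of 23.2, against 18.8 for strong peaks of the whole list, and a median width of 1104 bp, against 818 bp. The lowest strong fold among them was 13.1 and the highest fold below the threshold of 11.99 was 9.52. The intervals of the 4 weakest strong peaks reached below the threshold, and those of 2 other peaks reached above it. These 2 were a JUP peak with a fold of 9.52 (7.24 to 12.3) and the peak nearest the CDH3 start, with one of 8.89 (6.37 to 12.1). Counting error thus does not place these 6 peaks on either side. Of the 97 peaks 10 were at least 1000 bp wide and 7 of these were strong, or 70.0%, against 69.4% of the 5828 such peaks in the list. Width and fold come from the same signal, so this is a description of peak shape. Typical peaks rested on few fragments, with a median pileup of 20 over the 97 and 16 over the list.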

How the data were processed

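The authors' deposited data are 1 list of ELF5 peaks on hg19, per the file headers, whose track name refers to IDR and to 1-3. How reads were aligned, how and at which threshold peaks were called, and how replicates and input entered are not stated in these sources. The authors' score equals the whole part of 10 times the deposited −log10 p in every row. The deposited −log10 p and −log10 q were used as given, and the deposited signal value is treated as a fold, a ratio of ChIP to local background. Fold, p and q of a peak are the authors' own. Total reads per sample are unknown here.

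Peaks were placed by summit in windows given to the kb, and coordinates are counted from 1. Pileups and backgrounds were recovered from fold and p by scaling whole pileups by 0.910, adding a pseudocount of 1 to pileup and background and taking a Poisson tail, which gave the p of 100% of peaks within 0.001 of −log10 p. The step was tested on simulated data. Bands came from circlize 0.4.16 and chromosome lengths from GenomeInfoDb 1.38.1. Neighbouring peaks were joined at 5 kb or less between summits. Alternatives were stricter lists, other definitions of strong, other window edges and other joining distances. Genes, windows and lists were chosen with earlier results of these data known. Peaks named are the 3 highest folds per window, every strong peak and the peak nearest a known gene start; other peaks were named after their values were seen. Other pathway genes, protein identity and distances to gene starts on hg19 beyond the cadherins were not analysed here. RefSeq (GRCh38.p14) gave promoter sequences and gene order only. Work was done in Python 3.11.15 with pandas 2.3.3, numpy 2.4.6 and scipy 1.17.1, and figures were drawn with matplotlib 3.10.9.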

Additional observations from a re-analysis of the deposited data

How the results depend on the processing

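Of 77 alternative values for 29 results, 54 stayed within their limits and 23 moved; a count moved if it differed by over 1.5 times, a median if it left its 95% interval, and a fold if it left its counting interval. Placing peaks by any base, narrowing the windows by 10 kb, requiring q under 0.05 and ranking by p instead of fold moved none of these results. Fewer peaks remain by construction among the highest 50% of folds, namely 50 of 97 in all, 2 at CTNNB1, 8 at CTNND1, 5 at CTNNA1 and 19 at JUP, where the median fold was 5.80 in all, 8.00 at CTNNA1 and 6.13 at JUP. With strong meaning the highest 5% of folds, 7 peaks were strong in all, 1 at CTNNA1 and 2 at JUP. The cadherin window also had 2, within its limit, so JUP no longer had the most alone. With the highest 20%, 19 peaks were strong in all, 5 in the cadherin window and 3 at CTNND1. Joining at 1 kb in place of 5 kb gave 76 clusters in place of 40, with 22 at the cadherins, 13 at CTNNA1 and 25 at JUP, and joining at 2.5 times the main distance gave 18, with 6, 3 and 1 in these windows and 3 at CTNND1. The number of clusters therefore depends on the joining distance. No paired analysis was possible because replicates have no values of their own in these data, and leaving out each replicate was not run for the same reason. With a median pileup of 20, the intervals of many weaker peaks overlap.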
